A study of Mus musculus with 2 samples.

Results

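The genes described here are the MYC, MAX and MXD network, a set of 10 genes chosen by symbol: Myc, Mycn, Mycl, Max, Mxd1, Mxd3, Mxd4, Mxi1, Mnt and Mlx. Each was read from a probe set whose annotation gave that 1 symbol, and all 10 were found among the 19935 genes measured. Each had 1 such probe set. The samples were 2 arrays of Ba/F3 cells, a mouse pro-B-like line whose parental form needs interleukin-3 (IL-3) to grow. The cells used here constitutively expressed BCR-ABL, the fusion kinase of chronic myeloid leukaemia. They were in medium with 10% serum and, per the treatment protocol, received imatinib, an ABL kinase inhibitor, at 5 µM for 6 h. The first group was 1 array of live cells grown with IL-3 and the second was 1 array of live cells grown without IL-3. The submitters described the cells with IL-3 as resistant to imatinib and those without it as sensitive, and asked how the expression of cells due to live differs from that of cells due to die.

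MYC proteins (MYC, MYCN and MYCL) are transcription factors that bind DNA as dimers with MAX, most strongly at the E-box letters CACGTG, and raise the expression of genes for ribosome production, nucleotide synthesis and cell growth. MXD1, MXI1, MXD3, MXD4 and MNT pair with the same MAX and bring in SIN3 and histone deacetylase complexes, which repress genes at such sites. MLX pairs with MNT, MXD1 and MXD4 and with the glucose-sensing factors MLXIP and MLXIPL, and in blood cells Myc itself is known as a gene that cytokine and BCR-ABL signalling keep switched on.

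The deposited values are log values, read as log2, set for each probe set against a baseline whose arrays are not known. They are therefore not expression levels, and an absent cell type marker cannot be told from a present one. Since each group had a single array, that number limits the precision: there is no replicate error, no test and no p-value. Every difference below is the value of the IL-3 array less that of the other array. Which array had IL-3 was taken from the sample titles. The description of the array titled with IL-3 says without IL-3, and a swap of the arrays would turn every sign. The source name of the array without IL-3 can also be read as without imatinib, so that for this reading IL-3 and imatinib cannot be told apart. Over all genes 59.8% of differences were above 0, with a median of 0.04. Probe sets of the same gene differed from each other with a pooled SD of 0.14 over 998 genes, which covers measurement within these arrays only. Of 45 measured markers listed for 8 cell types, 12 were lower with IL-3 by 1.5-fold or more, against 2.71% of all genes. Higher by as much were 0, against 3.52% of all genes, though 18 of the 45 were above 0. The 12 included 4 of 7 mast cell and basophil markers and 4 of 8 granulocyte markers, but 0 of 9 B-lineage markers. Above 0 were 2 of these 7, 3 of these 8 and 5 of these 9. The part of the markers in the values of the network was not tested.

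The canonical E-box CACGTG, which reads the same on both strands, was searched in promoter windows from RefSeq (GRCm38.p6) that span 250 bases before to 50 bases after each gene's start. Of the network genes 9 had a window, Mxi1 with several and Myc with none in the table. The letters were found in 4 of these 9, Max, Mlx, Mnt and Mxd4, against 1483 of the 15612 measured genes with a window (9.50%). They are shown because MYC, MAX and MXD proteins bind these letters, so a match marks a network gene whose own promoter holds the network's motif. A match is a description of the letters and not evidence of binding. In each line CACGTG is in capitals, with 20 bases on either side, 5′ to 3′ on the gene's strand.
Max: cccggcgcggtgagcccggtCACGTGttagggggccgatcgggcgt
Mlx: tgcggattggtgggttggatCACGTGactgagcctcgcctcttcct
Mnt: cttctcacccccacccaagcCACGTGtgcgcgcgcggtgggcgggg
Mxd4: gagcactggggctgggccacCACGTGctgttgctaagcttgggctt
The Max stretch lies at chr12:76962226-76962271 on the minus strand, and its motif covers the start itself. The Mlx stretch lies at chr11:101087230-101087275 on the plus strand, with the motif beginning 40 bases before the start. The Mnt stretch lies at chr11:74830781-74830826 on the plus strand and the Mxd4 stretch at chr5:34187904-34187949 on the minus strand. In these the motif begins 123 and 219 bases before the start. The 4 genes with the motif had a median difference of -0.07 and the 5 without it a median of 0.15.

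Myc and Mycn had higher values with IL-3 and Mxd4 and Mxi1 had lower ones, all by less than 1.5-fold. Of the 10 network genes, 6 were above 0 and 4 below, with a median difference of 0.09, and 0 were at least 1.5-fold higher or lower. The sign of this median turned after quantile normalization (-0.0052) and with the loess trend subtracted (-0.064), where 5 genes were above 0. Over all genes 3.52% were at least 1.5-fold higher and 2.71% at least 1.5-fold lower, so a count of 0 among 10 genes does not set the network apart. At 2-fold the network count was also 0, against 0.441% of all genes higher and 0.657% lower. The split of all genes depended on scaling. At 1.5-fold there were 701 higher and 540 lower as deposited, 480 and 645 after quantile normalization, and 357 and 739 after subtraction of a loess trend. At 2-fold the higher and lower genes were 88 and 131 as deposited, 62 and 161 after quantile normalization, and 29 and 205 after the loess trend was subtracted.

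**Figure D1:**
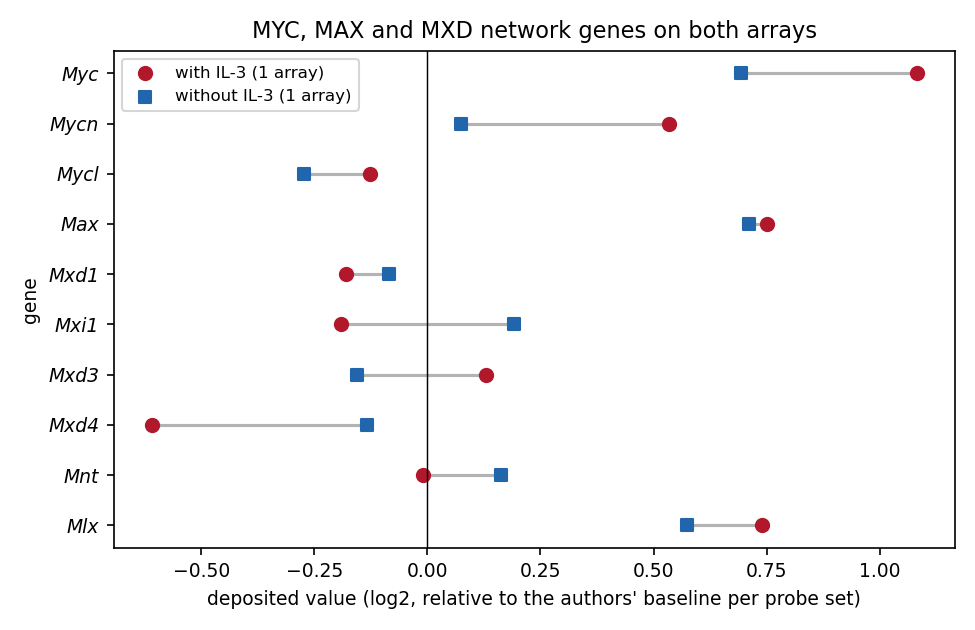
Deposited log2 values relative to the authors' baseline (horizontal axis) of the 10 network genes (vertical axis), with 1 array with IL-3 (circles) and 1 without IL-3 (squares). Myc had 1.08 with IL-3 and 0.69 without IL-3, whereas Mxd4 had -0.61 with IL-3 and -0.13 without IL-3.

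Among the activating members, Myc, the main MYC gene of blood cells, had the value 1.08 with IL-3, against 0.69 without IL-3. The difference of 0.39 is a 1.31-fold higher signal with IL-3. Both values were above 0 and so above the baseline of this probe set. Mycn, better known from neural tissue and stem cells, had 0.53 with IL-3 and 0.07 without IL-3, a difference of 0.46 or 1.37-fold. This was the highest of the 10 genes and the 1189th highest of all genes, with 94.0% of genes below it. Mycl, the remaining MYC gene, had -0.13 with IL-3 and -0.27 without IL-3, a difference of 0.15 that barely passed the SD between probe sets. All 3 MYC genes were thus on the side higher with IL-3, as they were under each of the other scalings, but Myc was closer to 0 in some of them, at 0.24 after quantile normalization and 0.11 with the loess trend subtracted.

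Max, the shared partner of the activating and repressing members, had nearly the same value on both arrays. It stood at 0.75 with IL-3 and 0.71 without IL-3, a difference of 0.04 that was smaller than the SD between probe sets. This difference ranked 9967th from the highest among 19935 genes. Its sign turned after quantile normalization (-0.08) and with the loess trend subtracted (-0.16). On both arrays Max was above its baseline, as Myc, Mycn and Mlx were.

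The repressing members did not all lie on one side. Mxd4, which is linked to quiescent and differentiated cells, had -0.61 with IL-3 and -0.13 without IL-3. The difference of -0.48, or 1.39-fold lower with IL-3, was the lowest of the 10 genes, and only 4.10% of all genes lay below it. Both values were below 0 and so below the baseline of this probe set. Mxi1, which encodes another MAX partner and MYC antagonist, had -0.19 with IL-3 and 0.19 without IL-3, a difference of -0.38 or 1.30-fold lower. Its 2 values were equal and opposite within 1e-05, as in 6.11% of probe sets, so its baseline lay midway between these arrays. Mnt, a broadly expressed repressor that also pairs with MLX, had -0.01 with IL-3 and 0.16 without IL-3, a difference of -0.17. Mxd1, a gene induced in myeloid differentiation, had -0.18 with IL-3 and -0.08 without IL-3. Its difference of -0.10 was within the SD between probe sets.

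Mxd3 went the other way from its relatives. This gene, known from dividing cells rather than resting ones, had 0.13 with IL-3 and -0.16 without IL-3, a difference of 0.29 or 1.22-fold higher with IL-3. Of all genes 87.6% had a lower difference. The direction of each of Mxd1, Mxd3, Mxd4, Mxi1 and Mnt was the same under every scaling tried. Mlx, the partner of the glucose-sensing branch, had 0.74 with IL-3 and 0.57 without IL-3. Its difference of 0.16 became 0.07 after quantile normalization and 0.004 with the loess trend subtracted. From highest to lowest the differences as deposited ran Mycn, Myc, Mxd3, Mlx, Mycl, Max, Mxd1, Mnt, Mxi1 and Mxd4. Places in this order changed with scaling. Mxd3 lay above Myc after quantile normalization (0.28 and 0.24) and with the loess trend subtracted (0.27 and 0.11). Neighbours in the order as deposited differed by less than the SD between probe sets except for Mxi1 and Mnt, with a gap of 0.21. That SD describes single differences, and a gap between 2 genes scatters more, so this exception does not set them apart. The 2 ends, Mycn and Mxd4, lay 0.94 apart.

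**Figure D2:**
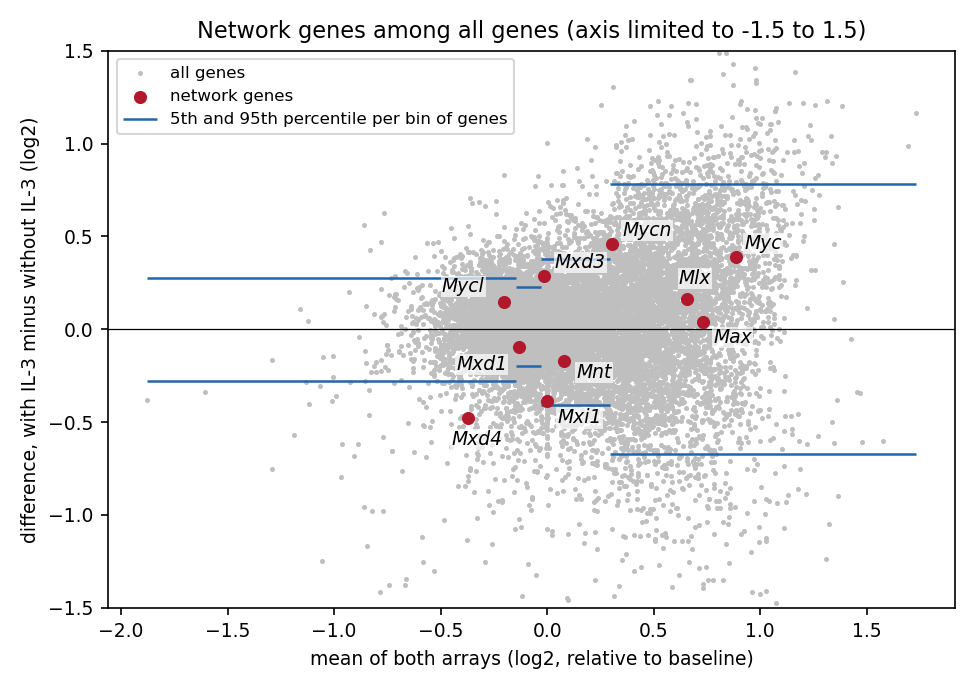
Difference with IL-3 minus without IL-3 (log2, vertical axis) against the mean of both arrays (log2, horizontal axis) for all genes (grey) and the 10 network genes (red), with lines at percentiles 5 and 95 of the differences in each of 4 equal bins of mean value. Genes beyond a difference of 1.5 in size are not drawn, and Mxd4 at -0.48 is the 1 network gene outside its lines.

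The scatter of the differences was not the same at all mean values, which bears on how far a network gene stands out. In the bin with the highest means, which holds Myc, Mycn, Max and Mlx, the middle 90% of differences ran from -0.67 to 0.78. The differences of Myc and Mycn lay inside this range and at or above percentile 75, which was 0.39. In the bin of the lowest means, with Mycl and Mxd4, that range was -0.28 to 0.28, and Mxd4 at -0.48 lay below it. Mxi1 at -0.38 was close to the lower edge of its own bin, -0.41. The other network genes lay within the ranges of their bins.

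**Figure D3:**
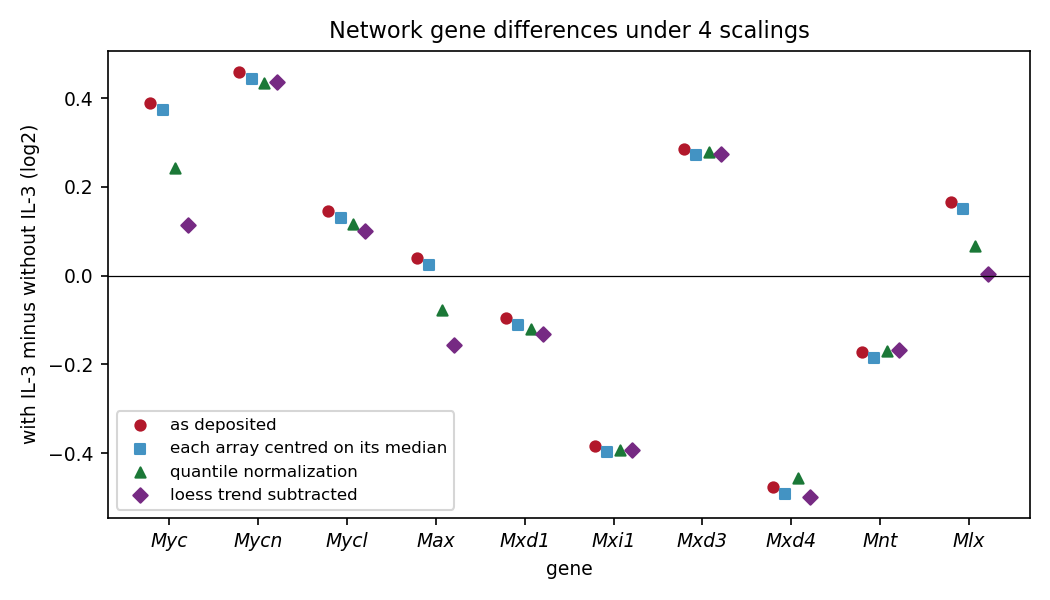
Difference with IL-3 minus without IL-3 (log2, vertical axis) of the 10 network genes (horizontal axis) under 4 scalings, each point from 1 array per group. Myc moved from 0.39 as deposited to 0.11 with the loess trend subtracted and Max moved to -0.16, while Mxd4 stayed between -0.46 and -0.50.

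The remaining partners of MAX and MLX had small differences below 0. Mlxip, which encodes the glucose sensor MondoA, had -0.15 with IL-3 and 0.04 without IL-3 (difference -0.19), and Mga, a large repressor that binds MAX, had 0.28 with IL-3 and 0.43 without IL-3 (difference -0.15). Mlxipl, which encodes ChREBP, differed by -0.08, within the SD between probe sets of 0.14, which Mga barely passed. All 3 were below 0, as were 7995 of all 19935 genes. At 1.5-fold there were 0, against 3.52% of all genes higher and 2.71% lower. Of the genes that MLX and MLXIP are known to control, Txnip, an inhibitor of glucose uptake, had -0.27 with IL-3 and 0.71 without IL-3, a difference of -0.97 or 1.96-fold lower. Arrdc4, of the same protein family as Txnip, differed by 0.17, so the pair did not move together.

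Coactivators of MYC had a median difference of 0.15, with 14 of 19 measured members above 0, 4 at least 1.5-fold higher and 0 at least 1.5-fold lower. The highest was Ruvbl2, an ATPase of the chromatin remodelling complexes that MYC recruits, at 1.42 with IL-3 and 0.44 without IL-3, or 1.98-fold. Skp2, a ubiquitin ligase subunit that both activates and degrades MYC, had 1.15 with IL-3 and 0.23 without IL-3, or 1.89-fold. Actl6a and Smarcb1, which encode chromatin remodelling subunits, were higher by 1.59-fold and 1.56-fold. The SIN3 and histone deacetylase corepressors of the MXD proteins had a median of 0.16, which was 0.061 with the loess trend subtracted, with 12 of 15 above 0, 2 at least 1.5-fold higher and 1 at least 1.5-fold lower. Sap30, a SIN3 complex subunit, had 1.67 with IL-3, against 0.65 without IL-3, and was the 1 member past 2-fold (2.02-fold higher). The histone-binding subunit genes Rbbp7 and Rbbp4 were 1.81-fold and 1.40-fold higher, whereas Arid4a, of the same complex, was 1.59-fold lower. Over all genes 59.8% were above 0. The share of all genes that reached 1.5-fold was 3.52% on the higher side and 2.71% on the lower side. For 2-fold on the higher side it was 0.441%. Neither list was tested against these shares.

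Genes whose products set the lifetime of the MYC protein had a median difference of 0.23, with 10 of 14 above 0, against 59.8% of all genes. At least 1.5-fold higher were 2 of 14, against 3.52% of all genes, and 0 were at least 1.5-fold lower. The kinase gene Aurka, whose protein shields MYCN from degradation, had 1.24 with IL-3 and 0.38 without IL-3, or 1.83-fold. Set and Cip2a, which encode inhibitors of the phosphatase PP2A that destabilises MYC, were 1.71-fold and 1.34-fold higher. Usp28, a deubiquitinase of MYC, was 1.43-fold higher. Of MYC protein itself the arrays say nothing, because they measure RNA.

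Among the genes known to be induced by MYC, 60 of the 62 measured were above 0, against 59.8% of all genes. Their median difference was 0.54, against 0.04 for all genes. At least 1.5-fold higher were 26 of 62, against 3.52% of all genes, and 0 were at least 1.5-fold lower, against 2.71%. All 26 had a mean value at or above the median of all genes, as had 688 of the 701 genes at least 1.5-fold higher. In the bin of all genes with the highest means the median difference was 0.11. The count at 1.5-fold was 17 after quantile normalization and 9 with the loess trend subtracted. Of all 19935 genes, 480 and 357 were at least 1.5-fold higher under these 2 scalings. Past 2-fold were 3 of the 62 genes, against 0.441% of all genes at least 2-fold higher. Mcm5, a subunit of the replicative helicase, had 1.57 with IL-3 and 0.38 without IL-3, or 2.27-fold. Nme1, a nucleoside diphosphate kinase, had 1.66 with IL-3 and 0.49 without IL-3, or 2.26-fold. Hspd1, the mitochondrial chaperonin gene, had 2.32 with IL-3 and 1.15 without IL-3, or 2.24-fold. Odc1, the first enzyme of polyamine synthesis, followed at 1.96-fold. This list was chosen with earlier results known and overlaps with ribosome production genes already seen to be higher on the array with IL-3, so it is not independent evidence of that direction.

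**Figure D4:**
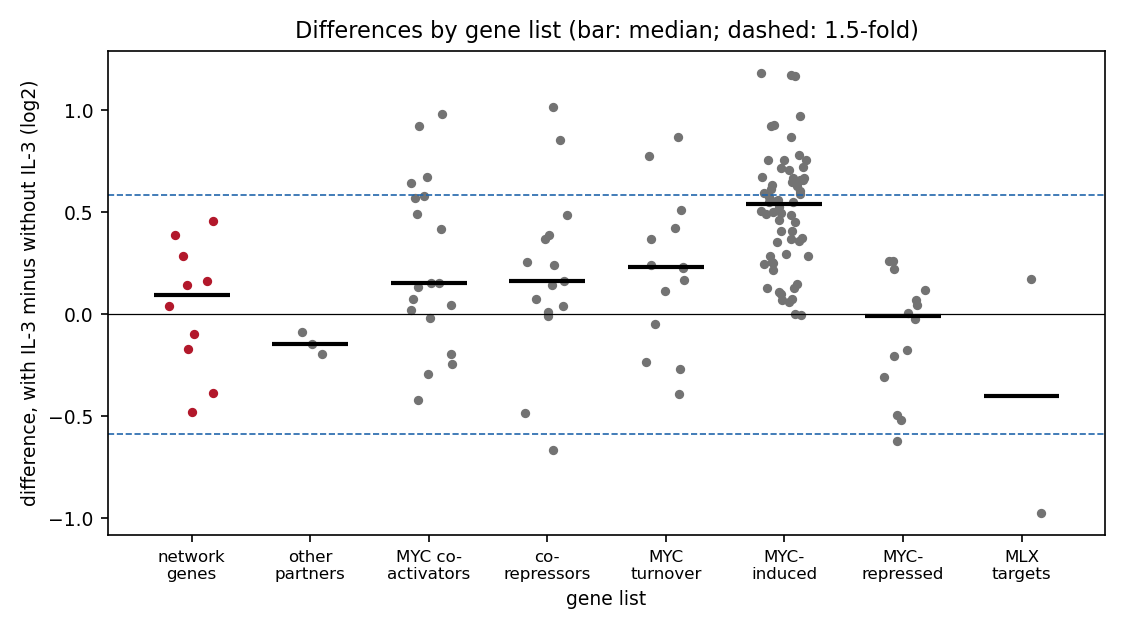
Differences with IL-3 minus without IL-3 (log2, vertical axis) of the members of each gene list (horizontal axis), with a bar at each median and dashed lines at 1.5-fold. The 10 network genes lie between -0.48 and 0.46, whereas 26 of the 62 MYC-induced genes lie above the upper dashed line. Of all genes 3.52% were at least 1.5-fold higher.

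The E-box letters were more frequent in promoter windows of the MYC-induced genes than over all genes, at 17 of 55 (30.9%) against 9.50%. The related letters CACGCG, searched on both strands and in windows that may also hold CACGTG, were found in 19 of 55 (34.5%) against 14.9% of all genes. Of the 3 genes past 2-fold, 2 had CACGTG, and their stretches are shown for comparison with those of the network genes.
Nme1: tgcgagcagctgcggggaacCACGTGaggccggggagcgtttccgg
Hspd1: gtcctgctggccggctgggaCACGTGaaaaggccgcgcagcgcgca
The Nme1 stretch lies at chr11:93968265-93968310 on the minus strand and the Hspd1 stretch at chr1:55088298-55088343 on the minus strand, with the motif beginning 18 and 80 bases before the start. A second window of Nme1, from a start farther downstream, also held the letters. The letters did not separate the genes by response. MYC-induced genes with CACGTG had a median difference of 0.56 and those without it 0.51, and over all measured genes both medians were 0.04.

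Genes known to be repressed by MYC had 7 of 14 measured members above 0, against 59.8% of all genes, and a median difference of -0.01. Over the members with a mean value at or above the median of all genes only, it was -0.25. That value rests on fewer members. Over all 14 the median was -0.03 after quantile normalization and -0.06 with the loess trend subtracted. The lowest were Cdkn1b, a cyclin-dependent kinase inhibitor, at 0.38 with IL-3 against 1.00 without IL-3, or 1.54-fold lower, and Gadd45a, a stress-response gene, at -0.15 with IL-3 and 0.37 without IL-3, or 1.43-fold lower. Ndrg1, a gene of differentiation and hypoxia, was 1.41-fold lower and Gadd45b 1.24-fold lower. The highest of this list was 0.26, and Cdkn1b was the 1 member past 1.5-fold in either direction.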

How the data were processed

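RNA from 2 cultures, 1 per group, was hybridised in 1 colour to mouse Gene 1.0 ST arrays per the labels' protocols. The deposited table holds 1 value per array for 28815 probe sets, as log values made relative to a baseline per probe set by the authors and read here as log2. The log base, the baseline and the methods of summarisation and normalization were not given in the sources used here. Gene names came from the platform annotation, which gives 1 symbol for 21780 of them. All 10 network symbols matched RefSeq GRCm38.p6 by Entrez ID. Where a gene had several probe sets, that of the highest mean over both arrays stood for it, with no filter on low values.

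The value without IL-3 was subtracted from that with IL-3, and the differences were counted at 1.5-fold and 2-fold over all genes. Counting was tested on simulated data. Members and lists were chosen with earlier results of these data known, and the lists come from textbook knowledge. Named were all 10 network genes, the up to 4 members of each network list with the largest difference in size, and every member of these lists past 2-fold. No gene alike in pattern was named, because 2 arrays give no pattern. Alternatives were median centring, quantile normalization, a loess trend (statsmodels 0.14.6, span 0.3), other probe set rules, natural logs and a filter on mean value.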

Additional observations from a re-analysis of the deposited data

How the results depend on the processing

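No network gene reached 1.5-fold under median centring, quantile normalization or the loess trend. The other probe set rules and the filter could not change a network gene's value. Each network gene had 1 probe set, and the filter only left genes out. Read as natural logs, 1 network gene was at least 1.5-fold higher and 1 at least 1.5-fold lower, and no sign can turn. The sign of Max turned after quantile normalization and with the loess trend subtracted, as did that of the network's median difference (-0.0052 and -0.064). The other 9 of the 10 genes kept their sign under median centring, quantile normalization and the loess trend. MYC-induced genes at least 1.5-fold higher numbered 17 after quantile normalization, 9 with the loess trend and 41 as natural logs. Over all genes the loess trend gave 357 at least 1.5-fold higher, and 29 at least 2-fold higher with 205 lower. Natural logs gave 1475 and 1080 at 1.5-fold and 419 and 375 at 2-fold, with list medians of 0.78 for MYC-induced genes and -0.58 for MLX and MLXIP targets. The filter on mean value, which kept 7 network genes, gave a median of -0.25 for MYC-repressed genes. Of the 2 MLX and MLXIP targets it kept Txnip only, at -0.97. The larger size under natural logs follows from the conversion, and the filter's values follow from fewer genes tested; the cause of the other changes was not tested. Counts at 1.5-fold over all genes and in the MYC-induced list were added after seeing the data. No paired analysis was possible because each group had 1 array. Signal over background is unknown, so low signal cannot be told from a small difference.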
